A study of Mus musculus with 4 samples.

Results

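The 44 collagen genes of the mouse, chosen as every gene of the deposited table whose symbol has the form Col, a number, a and a number, were described by cell type among 21495 measured genes. They comprised 11 fibrillar chains, 8 chains of basement membranes, 9 FACITs, which are collagens that decorate the surface of fibrils, 7 chains of the beaded filament type, 4 network or anchoring chains and 5 transmembrane or other chains. The genes were measured by droplet-based single-cell RNA-seq in gonads dissected together with the adjoining mesonephros, from the stages at which the gonad commits to testis or ovary. There were 4 samples and 1 sample per group. The XY control and the XX control, both at E11.5, carried an intact miR-17~92 cluster, whereas the samples XY KO E11.5 and, from a slightly later stage, XY KO E11.75 lacked this cluster of microRNA genes on both alleles. The strain label was C57BL/6 x 129S4/SvJae for all samples. Per the study's methods, both kinds of XY embryos were grown from G4 embryonic stem cells by tetraploid aggregation, after genome editing of the cells in the case of the KO, so that all KO cells lacked the cluster and the embryos of a sample came from cultured cells of the same origin. XX embryos were bred from C57BL/6J males and 129 females instead. Several pairs of gonads were pooled per sample, so no comparison has biological replicates and no p-value is given. The runs of a sample are technical replicates per the study's methods, and cells are not replicates. All intervals are 95% intervals that cover counting error only.

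Collagens are built from 3 chains wound into a helix and are the main structural proteins of the extracellular matrix. Fibrillar collagens are secreted chiefly by mesenchymal cells and assemble into the fibres of connective tissue. Basement membrane collagens form the sheet under epithelia and around vessels, and in the developing testis such a sheet encloses the cords formed by Sertoli cells and germ cells. A comparison of the 2 classes by lineage therefore describes which cells transcribe the parts of each kind of matrix, and the KO and XX samples show how those levels differed with genotype, stage and sex.

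The table held 301219830 unique molecular identifiers (UMIs) in 52745 cells of 13 annotated types, with 3669 to 23527 cells and 37841392 to 105192238 UMIs per sample. The median was 3893 to 4763 UMIs per cell in the XY samples and 15509 in the XX control. Between 1 and 40 cell barcodes were shared by any pair of runs, also within a sample, so the runs hold different cells. Levels are counts per 1000000 UMIs (CPM), the UMIs of a gene summed over the cells of a type relative to all UMIs of these cells. Each UMI marks the 3′ end of a transcript, so levels of different genes were compared without division by length. Types with fewer than 50 cells in a sample were left out of all comparisons: the 24 Sertoli cells of XY KO E11.5, the 2 of the XX control, and the 38 immune and 8 adrenal cells of XY KO E11.75. Marker lists of the cell types were highest in the type they name in all samples with enough cells, except that the list for mesenchyme was highest in interstitial progenitors and that the list shared by pre-supporting and other gonadal cells was highest in Sertoli cells or coelomic epithelium in 2 samples. In the XY control the list for mesenchyme was at 952 CPM in interstitial progenitors and second in coelomic epithelium, at 671 CPM. The immune cells of the XY control stood apart. Their median was 1488 UMIs, against 7040 in the KO of that stage and 18870.5 in XX cells, and their 6 immune markers summed to 924 CPM, against 3862 and 4384. Cell types were formed by clustering on genes that include the collagens, so differences between types are described and were not tested.

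A wide range of levels was found. In at least 1 type with 50 cells or more, 20 of the 44 genes reached 100 CPM, of which 7 were fibrillar, 5 basement membrane, 3 FACIT, 3 beaded filament and 2 transmembrane or other. A further 11 genes peaked between 10 and 100 CPM. The other 13 never reached 10 CPM, namely Col4a3, Col4a4, Col6a4, Col6a5, Col8a1, Col10a1, Col11a2, Col17a1, Col19a1, Col20a1, Col22a1, Col24a1 and Col28a1, and 4 of them (Col6a5, Col10a1, Col19a1 and Col28a1) had fewer than 100 UMIs in the whole series. In 15 genes the same type was highest in all 4 samples. Sets of 4 values follow the order XY control, KO at E11.5, KO at E11.75, XX control.

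**Figure D1:**
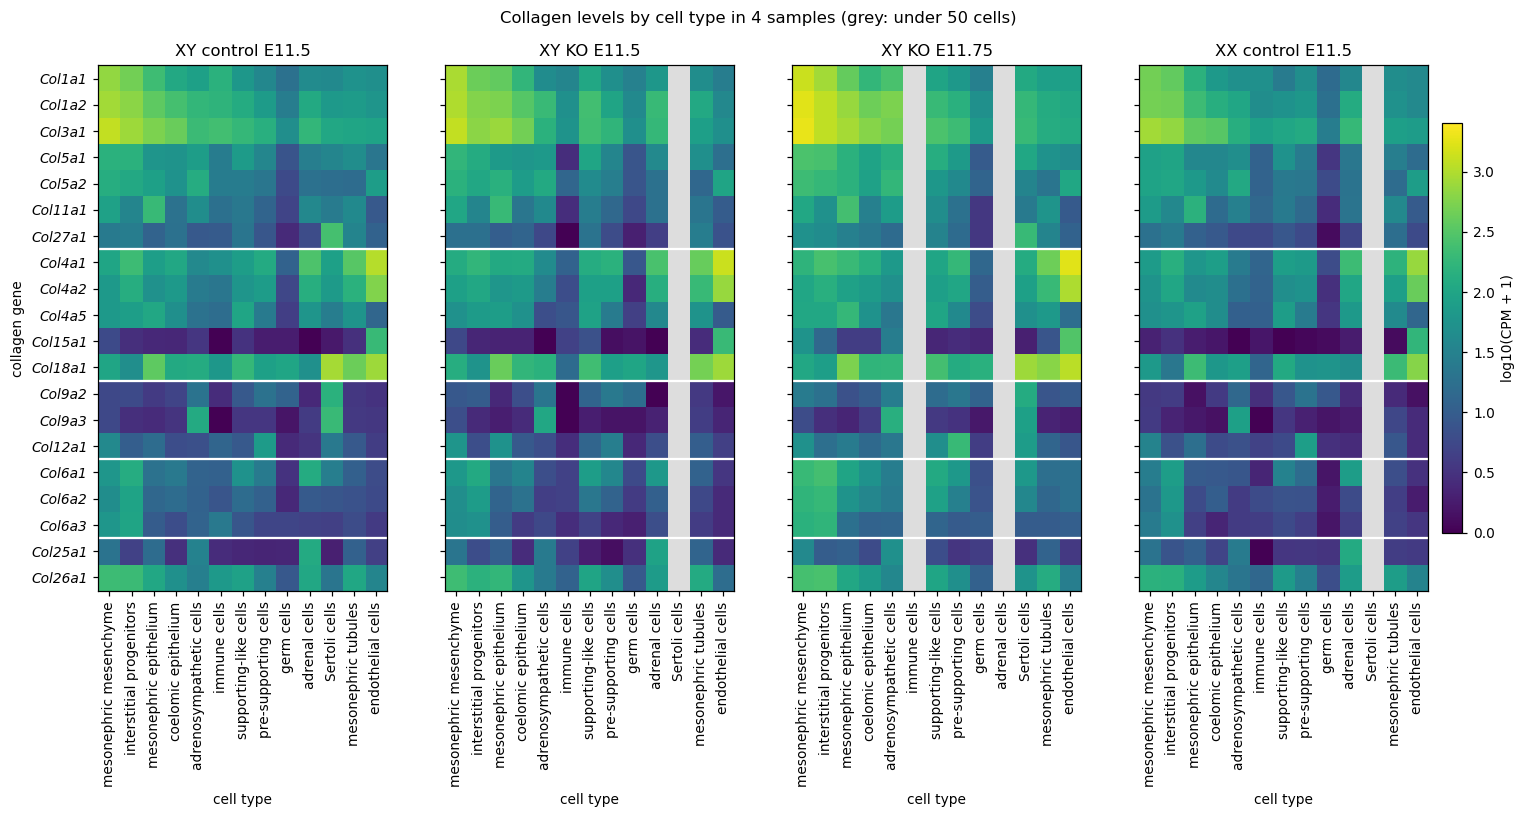
Levels of the 20 collagen genes that reached 100 CPM, drawn as log10 of CPM plus 1 (colour) for each cell type (columns) and sample (panels), with white lines between classes in the order fibrillar, basement membrane, FACIT, beaded filament, and transmembrane or other. Grey columns mark types with fewer than 50 cells. Col1a1, Col1a2 and Col3a1 were brightest in mesonephric mesenchyme, Col11a1 in mesonephric epithelium, and Col4a1 and Col4a2 in endothelial cells.

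Type I and type III collagen genes were the most abundant members and were highest in mesonephric mesenchyme in every sample. Col3a1, the single chain of type III collagen, was at 1210.3, 1232, 1923 and 836 CPM there. Col1a2, the minor chain of type I collagen, was at 853, 997.5, 1781 and 485 CPM. Col1a1, the major chain, was at 710.3, 923, 1352 and 467 CPM. In each of the 3 genes XY KO E11.75 had the highest level and the XX control the lowest. Interstitial progenitors, the stromal cells of the gonad, came next in most samples, with Col1a1 at 478, 432, 845 and 385 CPM. Germ cells had little, with Col1a1 at 17.3 CPM in the XY control. Shares of cells with a UMI depend on depth, so every cell was cut at random to 3000 UMIs (thinning), which excluded 3572, 1053, 1595 and 11 mesonephric mesenchyme cells of lower depth. Col1a1 was then found in 79.4%, 85.8%, 89.6% and 69.5% of mesonephric mesenchyme cells and in 5.94%, 7.59%, 7.28% and 2.38% of germ cells, the type taken as the background of free RNA. Without thinning the shares were 82.3%, 91.1%, 89.4% and 94.8% in the mesenchyme, where the median depth of the XY control was 3573 UMIs, and 14.4%, 26.1%, 23.7% and 19.0% in germ cells, where it was 11990.5 UMIs.

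The quantitatively minor fibrillar chains followed other patterns. Col5a1 and Col5a2 encode type V collagen, which helps to start fibrils and sets their width. Col5a1 in interstitial progenitors was at 149.6, 123, 255 and 94.5 CPM, and Col5a2 in mesonephric mesenchyme at 129, 145, 213 and 93.7 CPM. Among the UMIs of Col1a1, Col1a2, Col3a1, Col5a1, Col5a2 and Col11a1 in the XY control, Col5a2 made up 4.1% in mesonephric mesenchyme but 25.5% in endothelial cells. Col11a1, a chain related to type V, was highest in mesonephric epithelium in all samples, at 196, 192, 238.5 and 153 CPM. Its share of the 6 genes was 13.4% in mesonephric epithelium and 2.75% in mesonephric mesenchyme. Col27a1 marked Sertoli cells instead, at 250.2 CPM (95% interval 235 to 266) in the XY control and 197 CPM (171 to 226) in XY KO E11.75, with the next highest type of the XY control, mesonephric tubules, at 33.7 CPM. Col2a1, the main chain of cartilage, did not pass 69.5 CPM in any type and was highest in adrenosympathetic cells or mesonephric tubules. The remaining chains Col5a3, Col11a2 and Col24a1 did not exceed 11.98 CPM in any type.

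Among the basement membrane genes, Col4a1 and Col4a2 encode the type IV network found under nearly all epithelia. They were highest in endothelial cells in every sample. Col4a1 reached 1036, 1327, 1750.1 and 749 CPM and Col4a2 563, 738, 970.3 and 415.5 CPM there. Mesonephric tubules followed in the XY samples, with Col4a1 at 331, 412, 444 and 157 CPM. After thinning, Col4a1 was found in 91.0%, 97.8%, 96.5% and 77.5% of endothelial cells and in 2.88%, 1.27%, 1.99% and 3.57% of germ cells. Without thinning 84.6%, 93.5%, 98.7% and 79.6% of endothelial cells and 8.45%, 7.88%, 9.21% and 10.7% of germ cells had one, at median depths of 4796 and 11990.5 UMIs in the XY control. In mm10 the 2 genes lie head to head on chromosome 8, Col4a1 at chr8:11198423-11312826 on the minus strand and Col4a2 at chr8:11312805-11449287 on the plus strand, so that the first exons overlap by 22 bases. The shared bases are shown because they are the common start of the pair. They are given on the plus strand of GRCm38.p6 from the RefSeq promoter table, chr8:11312805-11312826, with a GC box (GGGCGG) in capitals.
Col4a1 and Col4a2: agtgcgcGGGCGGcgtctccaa
GGGCGG, searched on both strands of 300 bases around each start, was present in 60% of the 35 collagen promoters that the table holds and in 35.6% of 27025 promoters in all. The corresponding shares were 31.4% and 37.8% for CCAAT and 14.3% and 14.1% for TATAAA. A match is a description of the letters and not of binding.

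The levels of the pair followed each other. Across 11 to 13 cell types the Pearson correlation of log2(CPM + 1) of Col4a1 and Col4a2 was 0.98 to 0.99 in the 4 samples, where all points of a sample share a library. Col4a1 made up 51% to 73% of the UMIs of the pair in each type and sample. Col1a1 and Col1a2, which lie on chromosomes 11 and 6, also correlated at 0.93 to 0.98, but here the share was less even. Col1a1 supplied 45.4%, 48.1%, 43.2% and 49.0% of their UMIs in mesonephric mesenchyme and 18.1% (13.3% to 23.8%) in the adrenosympathetic cells of XY KO E11.5. The other head-to-head pairs were Col4a5 with Col4a6 on chromosome X, 1308 bases apart, and Col4a4 with Col4a3 on chromosome 1, 71 bases apart. Col4a5 and Col4a6 correlated at 0.86 to 0.94, and Col4a5 was the more abundant. In mesonephric epithelium, the highest type for Col4a6 in all samples and for Col4a5 in 3, they stood with Col4a5 at 108, 77.9, 183 and 87.2 CPM and Col4a6 at 35.6, 31.6, 68.5 and 26.6 CPM. Col4a3 and Col4a4, chains of the mature glomerular membrane, had 113 and 433 UMIs in the series and stayed under 10 CPM in all types.

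**Figure D2:**
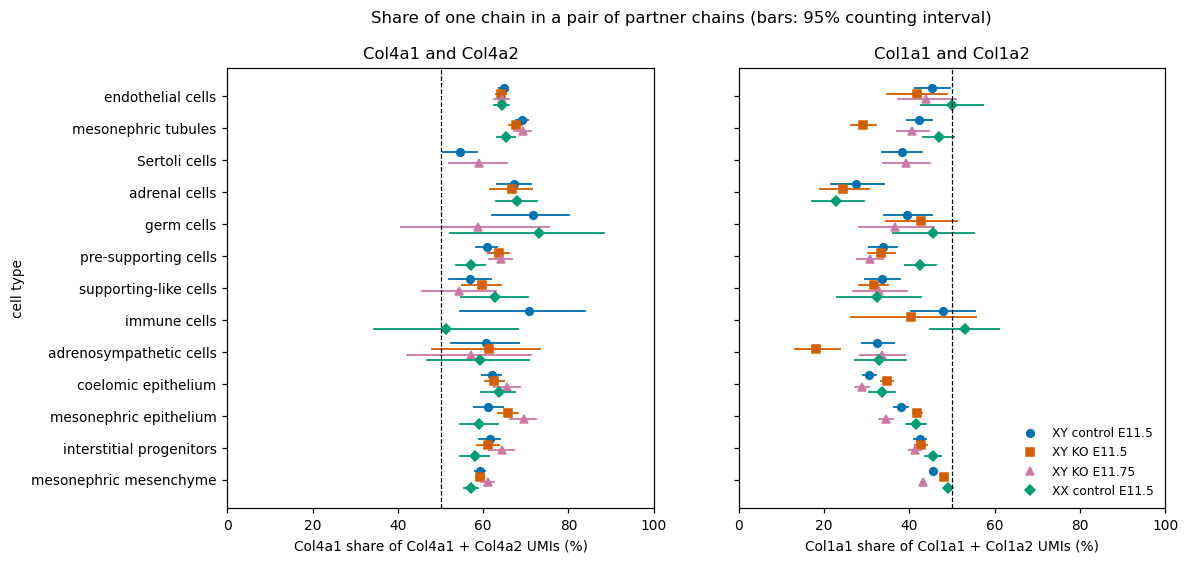
Share of Col4a1 in the UMIs of Col4a1 and Col4a2 (left, percent) and of Col1a1 in those of Col1a1 and Col1a2 (right, percent) by cell type, with symbols for the samples and bars for the 95% counting interval. The Col4a1 share stayed above the dashed line at equal shares, whereas the Col1a1 share was lowest in the adrenosympathetic cells of XY KO E11.5, at 18.1%.

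Col15a1 and Col18a1 encode the multiplexins, proteoglycan collagens that link basement membranes to the tissue around them. Their levels separated them from each other. Col15a1 was highest in endothelial cells in every sample, at 195, 200.4, 302 and 171 CPM. Col18a1, the source of the fragment endostatin, was broad. It was highest in the Sertoli cells of the XY control, at 879 CPM (851 to 908), with 791 CPM in endothelial cells and 437 CPM in mesonephric tubules of that sample. In the other samples endothelial cells were highest, at 804, 1120.5 and 604 CPM. In XY KO E11.75 the Sertoli cells had 795 CPM (741 to 851). The level in the 24 Sertoli-annotated cells of XY KO E11.5 was 291 CPM from 44 UMIs, which is given for completeness. Col18a1 was also measured in germ cells, at 55.6 to 144 CPM. After thinning 25.7% of germ cells and 84.2% of Sertoli cells of the XY control had a UMI, and without thinning 67.4% and 91.9%, at median depths of 11990.5 and 5095.5 UMIs. Across cell types Col18a1 correlated with Col4a1 at 0.32 to 0.64 only.

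The sums of the classes placed endothelial cells highest and mesonephric mesenchyme lowest in all samples. On the log2 scale of basement membrane UMIs over fibrillar UMIs, endothelial cells were at 3.02, 3.66, 3.11 and 2.92, whereas mesonephric mesenchyme was at -3.14, -3.14, -3.30 and -3.00. Mesonephric tubules were at 1.27, 1.48, 1.29 and 0.67. Among gonadal types, Sertoli cells were at 0.86 (0.79 to 0.94) in the XY control and 0.28 (0.15 to 0.40) in XY KO E11.75. Col18a1 made up 82.6% and 74.7% of their basement membrane UMIs, and without it, an alternative chosen after seeing the data, the values were -1.66 and -1.71. Pre-supporting cells, the progenitors of Sertoli and granulosa cells, were near balance at -0.10, -0.22, -0.32 and -0.56, and germ cells were at 0.03, -0.36, -0.05 and -0.12. The 2 runs of the XX control differed in germ cells, at 0.80 (0.36 to 1.26) in run 1 and -0.65 (-0.99 to -0.32) in run 2. The runs of the XX control also differed in pre-supporting cells, at -0.76 (-0.90 to -0.62) and -0.36 (-0.50 to -0.22), and those of XY KO E11.5 were at -0.08 and -0.34, against -0.04 and -0.17 in the XY control. Without Col18a1 pre-supporting cells were at -0.57, -0.61, -0.77 and -1.004 and germ cells at -3.33 to -2.52. Col18a1 made up 83.3%, 87.5%, 82.1% and 83.8% of the basement membrane UMIs of germ cells. Germ cells are also the type taken above as the background of free RNA, so their ratio is not read as a balance of the lineage. Interstitial progenitors at -2.20, -2.18, -2.55 and -2.43 and coelomic epithelium at -1.39, -1.41, -1.69 and -1.40 had an excess of fibrillar UMIs. Supporting-like cells were at -0.26, -0.46, -0.63 and 0.15, below pre-supporting and germ cells in the XY samples and above both in the XX control. Adrenal cells were at 0.34 in the XY control, 0.003 at E11.5 in the KO and 0.08 in the XX control. The basement membrane sum exceeded the fibrillar sum in 5 of 13, 3 of 12, 3 of 11 and 4 of 12 types. The counting interval lay above 0 in 4, 2, 3 and 2 of them and included 0 in the others. Without Col18a1 the basement membrane sum was the larger in 3 of the 13 types of the XY control, namely endothelial cells, mesonephric tubules and adrenal cells. In the XX control the mesonephric tubules then turned from 0.67 to -0.11 (-0.20 to -0.03) and supporting-like cells from 0.15 to -0.46, and in XY KO E11.5 adrenal cells moved from 0.003 to -0.18 (-0.37 to 0.02), and those of the XX control from 0.08 to -0.07 (-0.26 to 0.11). The ratio is taken within the same cells, so library scaling does not enter it.

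**Figure D3:**
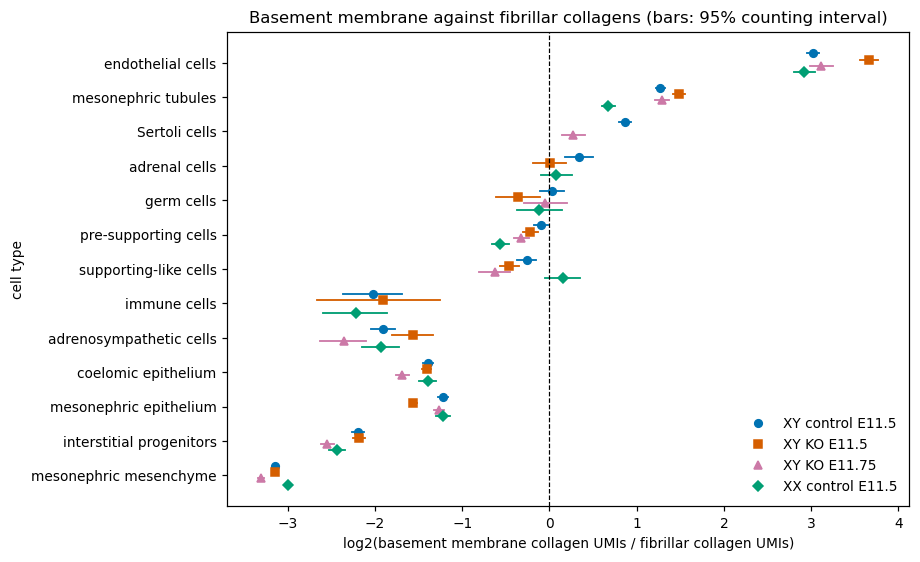
Log2 of summed basement membrane over summed fibrillar collagen UMIs for each cell type (rows) and sample (symbols), with 95% counting intervals as bars and a dashed line at equal sums. Endothelial cells lie at 2.92 to 3.66 and mesonephric mesenchyme at -3.30 to -3.00, and pre-supporting cells lie between them.

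The FACITs were lower and more restricted. Col9a2 and Col9a3, chains of type IX collagen, were highest in the Sertoli cells of the XY control, at 149 CPM and 198 CPM. Col9a3 had a second site in adrenosympathetic cells, at 120.3, 109, 137 and 83.4 CPM. Col9a1, the remaining chain, was at 23.4 CPM in Sertoli cells of the XY control. Type IX collagen is best known from cartilage, and the list of 5 cartilage markers summed to 244 CPM in these Sertoli cells, the highest of all types in the sample, from Acan, Sox5 and Sox6, with Matn1 and Cnmd at 0. Col12a1, which binds fibrils of type I collagen, was highest in pre-supporting cells in 3 samples and was at 72.5, 27.4, 197 and 78.6 CPM. Col14a1 and Col16a1 peaked in interstitial progenitors or mesonephric mesenchyme at 97.0 and 67.3 CPM.

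Type VI collagen forms beaded filaments around cells. Its chains Col6a1, Col6a2 and Col6a3 were highest in interstitial progenitors in every sample, at 124.5, 116, 241 and 77.5 CPM for Col6a1, 93.7, 74.8, 191 and 64.4 CPM for Col6a2 and 95, 50.7, 169 and 51.3 CPM for Col6a3. Adrenal cells of the XY control were close for Col6a1, at 123.8 CPM. After thinning, 30.4% of adrenal cells and 29.5% of interstitial progenitors of the XY control had a Col6a1 UMI. The shares were 23.6% and 15.6% in the XX control and 19.7% and 26.1% in XY KO E11.5. Col6a6 was highest in supporting-like cells, at 13.4, 20.4, 30.7 and 6.45 CPM. No network or anchoring chain reached 100 CPM. Col7a1, the anchoring fibril chain, and Col8a2 peaked in mesonephric mesenchyme of XY KO E11.75 at 31.3 and 36.2 CPM. Of the transmembrane and other chains, Col26a1 was at 212, 219, 252 and 151 CPM in mesonephric mesenchyme, Col25a1 at 120.1 CPM in adrenal cells of both controls and Col23a1 at 67.7, 36.8, 41.1 and 52.5 CPM in endothelial cells. Col13a1 peaked in mesonephric mesenchyme or interstitial progenitors, at up to 48.0 CPM.

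The deleted cluster encodes 6 mature microRNAs of 4 seed families. A seed is bases 2 to 8 of a microRNA, which pair with a target. The sequences are shown because they define the matches searched for in the collagen transcripts. They are from RefSeq (GRCm38.p6, chromosome 14, plus strand), with the seed in capitals.
miR-17-5p: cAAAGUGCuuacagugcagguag
miR-20a-5p: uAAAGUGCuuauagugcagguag
miR-18a-5p: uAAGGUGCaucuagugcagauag
miR-19a-3p: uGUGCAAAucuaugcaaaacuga
miR-19b-3p: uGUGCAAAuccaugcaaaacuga
miR-92a-3p: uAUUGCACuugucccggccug
The longest annotated 3′ UTR of each gene (mm10) was searched for the complement of each seed. A match to any family was present in 15 of 44 collagen genes (34.1%) and in 5306 of 17277 genes of the table with a 3′ UTR (30.7%). The median lengths of these 3′ UTRs were 1032.5 and 1057 bases. By family the shares were 13.6% of collagens and 6.96% of all genes for miR-92a, 11.4% and 12.9% for miR-17 and miR-20a, 9.09% and 8.57% for miR-18a, and 2.27% and 12.01% for miR-19. The 6 genes with a miR-92a match were Col1a1, Col1a2, Col5a1, Col11a1 and Col27a1, which are fibrillar, and Col12a1. In 3 of them the match was 8 bases long, with an A after the seed match. These 3 are shown with the bases before them, on the transcript strand, with the match in capitals, at chr6:4540834-4540841, chr2:28037707-28037714 and chr4:63333680-63333687, all in 3′ UTRs on the plus strand of mm10.
Col1a2: agaaggattggtcagagcagtGTGCAATA
Col5a1: tacccccacccccacaagaatGTGCAATA
Col27a1: tcccgctagggagctttcgatGTGCAATA
A match in the sequence does not show that the site is used.

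The samples were then compared with the XY control, which all 3 comparisons share. Log2 ratios of CPM were taken for genes with at least 100 UMIs in both samples together and are given relative to the median of all tested genes of the same type, which lay between -0.13 and 0.02 for XY KO E11.5, between 0.11 and 0.19 for XY KO E11.75 and between -0.17 and -0.03 for the XX control. A gene was called in a type when this relative ratio was at least 1 in size, that is 2-fold. In a pooled tissue of this kind a lower level can come from fewer cells of a state within a type or from less RNA per cell, and the 2 cannot be told apart. Between the 2 runs of a sample, where both had enough UMIs, 3 of 393 pairs of collagen gene and type differed by more than 2-fold (0.763 percent, against 0.0781 percent of all tested pairs of gene and type), and the median of the medians by type was 0.13. The 3 were Col1a1 in endothelial cells and Col3a1 in immune cells of the XY control and Col9a1 in mesonephric tubules of the XX control, named after their values were seen. XY KO E11.75 had 1 run.

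In XY KO E11.5, 6 of 189 pairs of collagen gene and type were called higher than in the XY control (3.17%) and 5 lower (2.65%). These pairs covered 36 genes and 12 types. The background was 0.612 percent of all tested gene and type pairs called higher and 0.962 percent lower. The median relative ratio of the collagen pairs was 0.18. The study's methods give XY KO E11.5 a lower beta-globin cut-off than the XY control. Its median depth was 4763 UMIs per cell, against 3893. The deletion, the editing of the stem cells and these differences cannot be told apart. At a minimum of 20 UMIs, 14 of 305 pairs were called higher and 23 lower, against 1.89 percent and 3.07 percent of all tested pairs. Of the higher calls, 4 were in mesonephric mesenchyme (background 0.603 percent) and 2 in mesonephric epithelium (0.515 percent). Pre-supporting cells had 1 lower call and no higher one among 16 tested members (background 1.88 percent lower and 0.956 percent higher). Interstitial progenitors had no call among 23 members (0.404 percent higher and 0.645 percent lower), with a median of -0.16.

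Of the members that rose in the KO mesenchyme at E11.5, Col9a1 and Col2a1 had the most UMIs. Col9a1 was at 10.7, 28.5, 14.7 and 24.3 CPM in mesonephric mesenchyme, 1.51 higher in XY KO E11.5 (1.36 to 1.67). Both XY KO E11.5 and the XX control were well above the XY control. Col2a1 was at 12.5, 27.0, 15.7 and 15.98 CPM, 1.21 higher in XY KO E11.5 (1.06 to 1.36). The remaining calls in this type were Col5a3, at 0.795 and 2.12 CPM in the XY control and XY KO E11.5, and Col8a1, at 0.795 and 2.05 CPM, each from fewer than 100 UMIs per sample. The cartilage markers summed to 34.6, 23.6, 51.8 and 29.1 CPM in mesonephric mesenchyme, with 3 or 4 of 5 detected and Matn1 at 0 in all samples. Their part in these levels was not tested.

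Col12a1 moved in opposite directions in 2 lineages of XY KO E11.5. In pre-supporting cells it fell from 72.5 to 27.4 CPM, a relative ratio of -1.31 (-1.57 to -1.06). In mesonephric epithelium it rose from 15.1 to 53.7 CPM, at 1.89 (1.58 to 2.23), while the KO of E11.75 and the XX sample were at 24.96 and 16.3 CPM. XY KO E11.5 was thus the lowest of the 4 samples in pre-supporting cells and the highest in mesonephric epithelium. After thinning, pre-supporting cells with a Col12a1 UMI made up 17.0%, 6.89%, 37.3% and 18.6%, and germ cells with one 0.719% in the XY control and 0 of 158, 151 and 84 in the other samples, at median depths before thinning of 4522 and 11990.5 UMIs in the XY control. Without thinning the shares of pre-supporting cells were 22.9%, 11.4%, 49.0% and 54.5%. The Sertoli marker list, all 6 genes detected, summed to 305, 54.9, 139 and 74.9 CPM in pre-supporting cells, and its part was not tested. Col16a1 also rose in mesonephric epithelium of XY KO E11.5, from 5.21 to 11.3 CPM (relative ratio 1.17, 0.61 to 1.80).

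The lower calls outside pre-supporting cells lay in immune and endothelial cells. Col1a1, Col3a1 and Col1a2 in immune cells fell from 149.6, 234 and 163 CPM in the XY control to 33.8, 55.1 and 49.8 CPM in XY KO E11.5, with relative ratios of -2.14, -2.08 and -1.71. They were the only 3 members with enough UMIs there, and 5.09 percent of all genes tested in immune cells were called lower. These are the immune cells of the XY control that stood apart. Their 5 mesenchyme markers summed to 168.5 CPM against 60.4 in XY KO E11.5, where Osr1 was at 0, and their 7 erythroid markers to 4707 against 864 CPM. The 2 runs of the XY control differed by 1.40 on the log2 scale for Col3a1 in immune cells. The part of these differences was not tested, and without immune cells 8 calls were left in XY KO E11.5, 6 of them higher. Of all tested pairs outside immune cells, 0.499 percent were called higher and 0.879 percent lower. In endothelial cells Col26a1 fell from 34.3 to 15.3 CPM (-1.12, -1.62 to -0.67). Of the pairs just inside 2-fold, Col1a2 in supporting-like cells was at 0.98, Col6a6 in coelomic epithelium at 0.97 and in interstitial progenitors at 0.89, Col9a2 in mesonephric mesenchyme at 0.88 and Col1a1 in mesonephric epithelium at 0.86. On the lower side Col3a1 in endothelial cells was at -0.92, Col11a1 in mesonephric tubules at -0.91, Col6a1 in adrenal cells at -0.90 and Col1a1 in adrenosympathetic cells at -0.88.

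Outside immune cells, where both sums were lower (156 against 636 CPM for fibrillar and 40.9 against 156.5 CPM for basement membrane chains), summed levels differed by less than 2-fold in XY KO E11.5. In mesonephric mesenchyme the fibrillar sum was 3178, 3621, 5727.5 and 2076 CPM and the basement membrane sum 360, 409.6, 580.1 and 259 CPM. The KO at E11.5 was higher by 0.19 on the log2 scale in both sums, and by 0.28 in both relative to the median gene. In interstitial progenitors the sums were lower by 0.22 and 0.20 on the log2 scale, and the relative values were -0.09 (-0.13 to -0.05) for fibrillar and -0.07 (-0.16 to 0.01) for basement membrane collagens. The second of these intervals includes 0. On the log2 scale before centring, restriction to cells with at least 5000 UMIs moved the basement membrane sum in interstitial progenitors from -0.20 to -0.59. Pre-supporting cells were at 328, 401, 568 and 301 CPM for fibrillar and 306, 344, 454.5 and 204 CPM for basement membrane collagens, with relative values in XY KO E11.5 of 0.38 (0.30 to 0.46) and 0.26 (0.18 to 0.35). Supporting-like cells (0.61) and mesonephric epithelium (0.56) had larger relative values of the fibrillar sum. Germ cells, the type taken as the background of free RNA, were at 0.32 (0.12 to 0.51) for the fibrillar sum. Their basement membrane sum was at -0.07 (-0.29 to 0.14). The part of free RNA in the sums of the other types was not tested. Endothelial cells had -0.37 for the fibrillar sum and 0.28 for the basement membrane sum, and their 5 mesenchyme markers, all detected, summed to 73.8 CPM in the XY control and 45.8 CPM in XY KO E11.5, whose part was not tested. The 2 runs of the XY control differed here, with fibrillar sums of 258 CPM in run 1 and 377 CPM in run 2, against 243 CPM in XY KO E11.5, and with Col1a1 1.29 apart on the log2 scale. The log2 of basement membrane over fibrillar UMIs was 3.42 and 2.70 in these runs, against 3.66 in the KO.

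**Figure D4:**
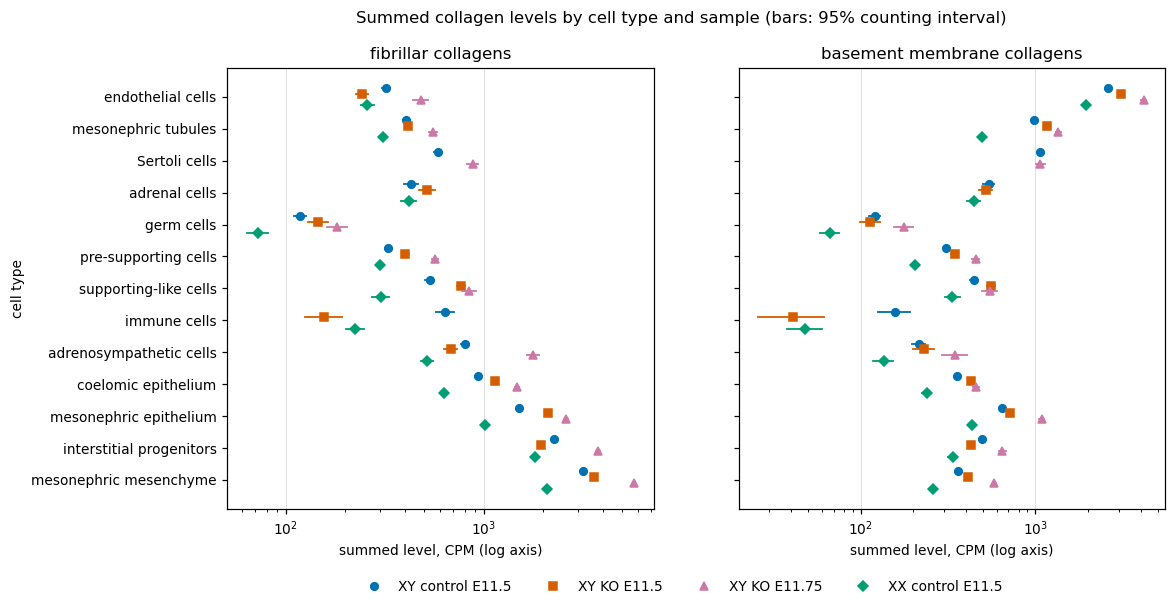
Summed fibrillar (left) and basement membrane (right) collagen levels in CPM on a log axis by cell type (rows) and sample (symbols), with 95% counting intervals as bars. XY KO E11.75 has the highest fibrillar sum in every type where it was compared, and the XX control the lowest or close to the lowest in most types.

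In XY KO E11.75 many collagens were higher than in the XY control. Of 190 pairs, covering 33 genes and 11 types, 37 were called higher (19.5%) and 4 lower (2.11%), against a background of 1.59 percent higher and 2.15 percent lower. The median relative ratio was 0.56. The KO sample is the later stage here, was a single run and had cut-offs of its own in the study's filtering. Its median mitochondrial share was 5.7 percent of UMIs, against 4.3 percent in the XY control. Stage, deletion and these differences cannot be told apart. By class, 14 of 21 tested pairs of beaded filament chains rose, as did 11 of 75 fibrillar, 7 of 24 FACIT, 3 of 45 basement membrane and 2 of 21 transmembrane or other pairs, and none of 4 network or anchoring pairs. The median relative ratios were 1.13 for beaded filament, 0.59 for fibrillar and 0.39 for basement membrane chains. They were 0.88 for network or anchoring chains, 0.37 for FACITs and 0.10 for transmembrane or other chains.

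Type VI collagen carried many of the calls. Col6a1 rose in 6 of 8 types tested and Col6a2 in 5 of 7. In mesonephric mesenchyme Col6a1 was at 59.6, 64.9, 194 and 26.7 CPM, 1.55 higher in XY KO E11.75 (1.48 to 1.63). Col6a2 was at 45.1, 47.0, 169 and 18.5 CPM (1.75, 1.67 to 1.84) and Col6a3 at 60.1, 44.8, 148 and 25.0 CPM (1.15, 1.07 to 1.23). XY KO E11.75 was highest and the XX control lowest in all 3. Larger relative ratios came from fewer UMIs, 2.43 (1.86 to 3.03) for Col6a2 in supporting-like cells and 2.24 (1.93 to 2.57) for Col6a1 and 1.96 (1.57 to 2.37) for Col6a2 in mesonephric epithelium. Pre-supporting cells had Col6a1 at 23.1, 36.8, 63.8 and 14.7 CPM, and their relative ratio in XY KO E11.75 was 1.28 (1.01 to 1.56). After thinning, 15.6%, 16.2%, 38.3% and 7.16% of mesonephric mesenchyme cells and 0.18%, 1.90%, 2.65% and 0 of 84 germ cells had a Col6a1 UMI, and without thinning 17.8%, 23.6%, 41.9% and 28.4% of the mesenchyme cells. Col6a6, a further chain of the family, rose in interstitial progenitors from 8.85 to 26.4 CPM (1.44, 0.88 to 2.04).

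The largest ratio of any collagen was that of Col15a1 in mesonephric mesenchyme. It was at 4.86, 4.44, 54.97 and 1.11 CPM, 3.35 higher on the relative log2 scale in XY KO E11.75 (3.13 to 3.58). After thinning 1.32%, 1.27%, 12.5% and 0.411% of mesonephric mesenchyme cells had a Col15a1 UMI, as did 0.36%, 0%, 0.662% and 1.19% of germ cells and 37.2%, 44.6%, 55.2% and 31.3% of endothelial cells. Without thinning the shares in mesonephric mesenchyme were 1.71%, 1.92%, 13.5% and 1.81%. In the other 3 samples the thinned shares, 0.411% to 1.32%, were thus near the 0% to 1.19% of germ cells, and XY KO E11.75 lay well above both. The 6 endothelial markers, all detected in each sample, summed to 70.0, 56.7, 107 and 40.2 CPM in mesonephric mesenchyme and to 2826 to 4133 CPM in endothelial cells, where Col15a1 was at 171 to 302 CPM. The 5 interstitial markers, all detected, summed to 1169, 1044, 1894.5 and 1193 CPM in mesonephric mesenchyme. The part of either list in the collagen levels was not tested. Col16a1, Col9a2 and Col6a6 also rose in this type, with relative ratios of 1.69 (1.56 to 1.83), 2.37 (2.11 to 2.63) and 1.78 (1.40 to 2.17), and 10 of 33 members were called higher there, against a background of 2.17 percent. Col16a1 also rose in mesonephric epithelium, from 5.21 to 30.3 CPM (2.39, 1.82 to 3.03). The interstitial markers summed to 639, 549, 965 and 694 CPM in that type, and their part was not tested. In pre-supporting cells Col12a1 rose to 197 CPM (1.26, 1.11 to 1.41), the opposite direction to XY KO E11.5, and Col6a2 to 29.6 CPM (1.32, 0.92 to 1.74).

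Sertoli cells of XY KO E11.75 showed changes in both directions. Of 20 members tested, 6 were called higher and 3 lower, against a background of 2.76 percent higher and 3.86 percent lower. Col1a1 rose from 40.2 to 117 CPM (1.40, 1.05 to 1.75), Col5a1 from 34.2 to 106 CPM (1.49, 1.12 to 1.86) and Col12a1 from 22.6 to 74.0 CPM (1.57, 1.11 to 2.02). The other higher calls were Col1a2, Col6a1 and Col26a1. Col9a3 fell from 198 to 85.7 CPM (-1.34, -1.68 to -1.03), Col23a1 from 26.7 to 9.74 CPM (-1.53, -2.70 to -0.67) and Col14a1 from 28.2 to 14.6 CPM (-1.05, -1.97 to -0.31). Col9a2 and Col27a1, highest in Sertoli cells among the types in both samples, were at 149 and 121 and at 250.2 and 197 CPM and were not called, nor was Col18a1, at 879 and 795 CPM. The Sertoli markers, all 6 detected, summed to 2378.5 and 1488 CPM in these cells and the 5 interstitial markers to 231 and 352 CPM, and their part was not tested. There were 752 and 168 cells.

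The fibrillar sum was above the XY control in all 11 types of XY KO E11.75, by 0.30 in mesonephric tubules to 1.01 in adrenosympathetic cells relative to the median gene. Germ cells, the type taken as the background of free RNA, moved with the others, from 117.6 to 181.6 CPM (0.44, 0.24 to 0.64). The basement membrane sum ranged from -0.14 (-0.24 to -0.05) in Sertoli cells, whose CPM before centring were 1063.7 and 1064.1 in the XY control, to 0.61 (0.55 to 0.68) in mesonephric epithelium. In adrenosympathetic cells Col1a1 rose from 85.9 to 266 CPM (1.51, 1.16 to 1.84) and Col1a2 from 178 to 527 CPM (1.44, 1.19 to 1.67), where the KO had 68 cells. Col13a1 rose in mesonephric tubules, from 6.51 to 20.4 CPM (1.499, 0.98 to 2.03). The only fibrillar gene called lower was Col2a1 in mesonephric epithelium, from 21.97 to 9.48 CPM.

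**Figure D5:**
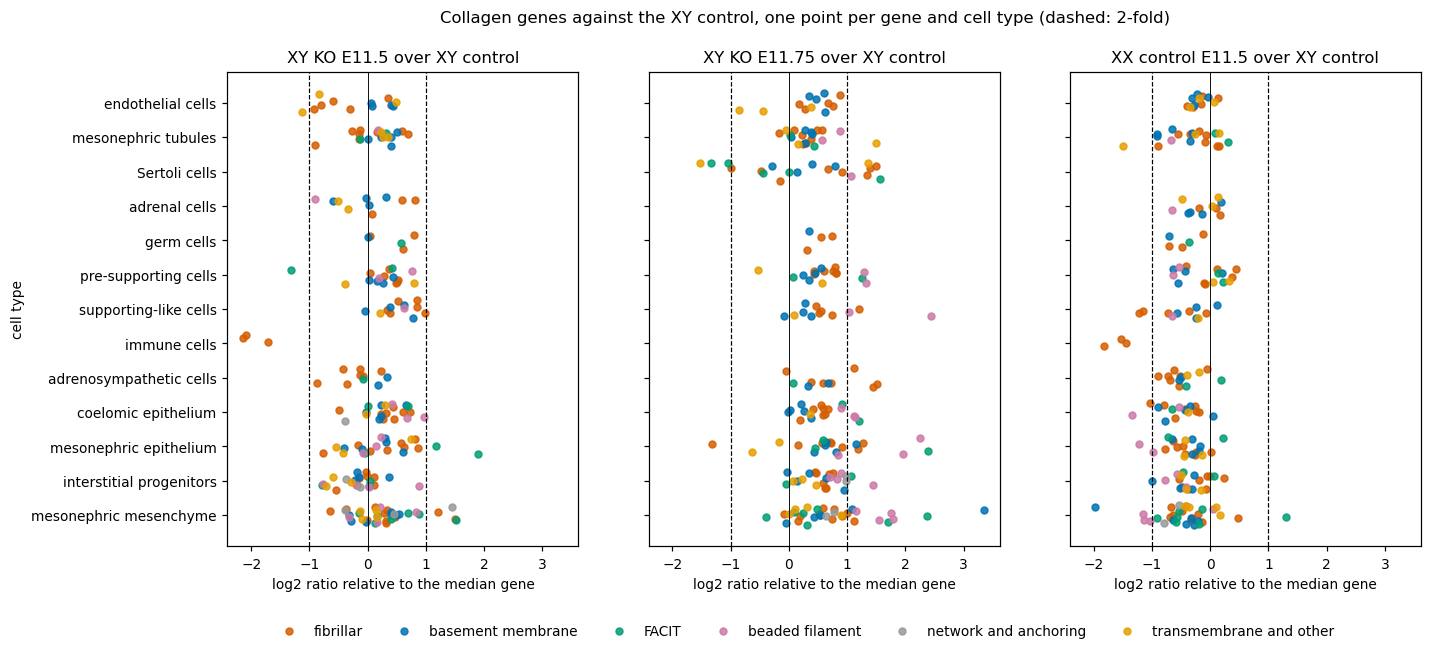
Log2 ratio relative to the median gene for each tested collagen gene (points, coloured by class) in each cell type (rows), for the 3 samples against the shared XY control, with dashed lines at 2-fold. Points of XY KO E11.75 lie mostly to the right of 0, up to 3.35 for Col15a1 in mesonephric mesenchyme, and those of the XX control mostly to the left.

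The XX control was mostly lower than the XY control. Of 179 pairs, covering 33 genes and 12 types, 1 was called higher (0.559%) and 14 lower (7.82%), against a background of 0.664 percent higher and 1.01 percent lower, and the median relative ratio was -0.37. This comparison differs in sex, in breeding, in depth and in filtering, which cannot be told apart. Col15a1 in mesonephric mesenchyme fell from 4.86 to 1.11 CPM (-1.98, -2.59 to -1.46), and the type VI chains Col6a1, Col6a2 and Col6a3 fell there with relative ratios of -1.03, -1.16 and -1.14. These 4 were the lower calls among 33 members in mesonephric mesenchyme, where 1.13 percent of all tested genes were called lower. The Col15a1 call came from 208 UMIs in the XY control and 32 in the XX control. As given above, the thinned shares of mesonephric mesenchyme cells with Col15a1 were near those of germ cells in both samples. Col1a1 and Col1a2 fell in supporting-like cells, from 62.9 to 25.0 CPM and from 124 to 52.4 CPM. Col25a1 in mesonephric tubules fell from 10.4 to 3.21 CPM and Col6a1 in coelomic epithelium from 22.4 to 7.99 CPM. The single higher call was Col9a1 in mesonephric mesenchyme, at 1.31 (1.14 to 1.48). The other lower calls were Col6a2 in mesonephric epithelium (-1.23), Col27a1 in coelomic epithelium (-1.03), Col18a1 in interstitial progenitors (-1.01) and Col1a1, Col1a2 and Col3a1 in immune cells (-1.53, -1.82 and -1.45), where 3.13 percent of all tested genes were called lower and where the control stood apart. Just inside 2-fold were Col6a1 in mesonephric epithelium at -0.98, Col16a1 in mesonephric mesenchyme at -0.91, Col4a1 and Col18a1 in mesonephric tubules at -0.91 each and Col2a1 in adrenosympathetic cells at -0.90.

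Class sums of the XX control differed by lineage. In pre-supporting cells the fibrillar sum was at -0.02 (-0.10 to 0.07) relative to the median gene and the basement membrane sum at -0.48 (-0.58 to -0.38). In mesonephric tubules the basement membrane sum was at -0.82 (-0.88 to -0.77), with Col18a1 at 437 and 207.5 CPM in the XY and XX controls and Col4a1 at 331 and 157 CPM. In mesonephric mesenchyme the order was the opposite, with -0.49 for the fibrillar and -0.35 for the basement membrane sum. Germ cells, the type taken as the background of free RNA, were lower too. They were at -0.58 (-0.78 to -0.37) for the fibrillar and -0.72 (-0.94 to -0.51) for the basement membrane sum. The part of free RNA in the sums of the other types was not tested.

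Ratios of members with and without a seed match were set side by side. In XY KO E11.5 the median relative ratio in mesonephric mesenchyme was 0.32 for 12 tested members with a match and 0.16 for 24 without, and the median with a match was higher in 9 of 12 types. The largest gap of that comparison in the opposite direction was in endothelial cells, at -0.59 for 5 members with a match and 0.07 for 7 without. In XY KO E11.75 the values in mesonephric mesenchyme were 0.76 for 10 and 0.54 for 23 members, and the median with a match was higher in 8 of 11 types. In Sertoli cells the medians were 1.35 for 8 and -0.15 for 12 members. At E11.5 the medians in pre-supporting cells of the KO were 0.28 for 7 and 0.37 for 9 members. Both KO comparisons use the same control, and the types share members, so these counts are descriptions. Some gaps in XY KO E11.5 were small, with medians of 0.02 and -0.02 in adrenal cells and -0.15 and -0.18 in interstitial progenitors. Immune cells had only 2 members with a match and 1 without. Medians by match were not taken over all genes, so the counts of types have no background.

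Genes that make, bind or degrade collagen were read from 5 lists of 9 to 33 genes. In XY KO E11.5 none of the tested genes of any list was called in interstitial progenitors, where P4ha1, a prolyl hydroxylase that stabilises the helix, was at 0.98 (0.76 to 1.21) and Dcn, a fibril-binding proteoglycan, at -0.69 (-0.87 to -0.51). In pre-supporting cells 6 genes were called higher and none lower, where 0.956 percent of all tested genes were called higher and 1.88 percent lower. They were Loxl2 (1.44) and P4ha2 (1.07) of 23 tested genes of collagen processing, Hspg2 (1.21), the perlecan of basement membranes, of 11, Fn1 (1.27), fibronectin, of 10 fibril partners, and Mmp2 (1.32) and Mmp11 (1.198), matrix proteases, of 9 genes of turnover. No gene of the 2 tested receptors was called. Against these, Timp1, a protease inhibitor, was at -0.37, Sparc, a collagen-binding matrix protein, at -0.33 and Fbln2 at -0.78. The Sertoli markers in these cells summed to 305 CPM in the XY control and 54.9 CPM in XY KO E11.5, and their part in these calls was not tested. Over all types of XY KO E11.5, 8 of 103 tested pairs of fibril partners were called higher and none lower, 3 higher and 2 lower of 134 of basement membrane partners, 3 and 0 of 84 of turnover genes, 4 and 1 of 250 of processing genes and 0 and 1 of 32 of receptors, against 0.612 percent higher and 0.962 percent lower of all tested pairs. Over all types of XY KO E11.75, 21 of 100 tested pairs of fibril partners, 12 of 135 of basement membrane partners, 6 of 86 of turnover genes, 5 of 243 of processing genes and 1 of 32 of receptors were called higher, against 1.59 percent of all tested pairs, and 1 pair of turnover genes was called lower, against 2.15 percent. In the XX control 5 of 98 pairs of fibril partners, 5 of 129 of basement membrane partners, 3 of 85 of turnover genes, 3 of 246 of processing genes and 2 of 32 of receptors were called lower, against 1.01 percent, and 1 of processing genes was called higher.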

How the data were processed

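Whole gonads with mesonephros were profiled with the 10x Genomics 3′ chemistry in 4 samples, 1 per group, of 1 run (XY KO E11.75) or 2 runs. The authors aligned reads to mm10, and the submitters' processing notes name Cell Ranger 6.1.1 and Seurat. Cells were filtered by the authors per XY sample on depth and on the percent of mitochondrial and beta-globin reads, low-quality clusters were removed for the XX sample, and doublets were removed with DoubletFinder. The deposited matrix holds UMI counts, and all 126435795 nonzero values were whole. The percent columns deposited beside it, of mitochondrial and beta-globin reads per cell, were computed by the authors and were used here only as a check. Cell types are the authors' deposited annotation, which they derived after integration. In that annotation the name bipotential progenitors stands for the pre-supporting cells, supporting cells for Sertoli cells, and epithelial cells for the coelomic epithelium. The study compared single cells with MAST, which treats cells as replicates and was not used here.

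UMI counts were summed per type and sample with Python 3.11.15, numpy 2.4.6, scipy 1.17.1 and pandas 2.3.3, and drawn with matplotlib 3.10.9. Levels have exact Poisson intervals, shares Clopper-Pearson intervals and ratios exact binomial intervals (95%). Such intervals cover counting error only and not the spread between embryos. For 0 UMIs of a gene, a level of up to 3 UMIs is allowed. For 0 cells of a total, the upper limit is that of the Clopper-Pearson interval. Ratios add 0.5 to each count, need 100 UMIs over both samples and 50 cells in each, and are relative to the median tested gene, and 2-fold is a call. With 1 sample per group there is no test. TMM factors from edgeR 4.0.16 (R 4.3.3) were an alternative. The ratio and call code was tested on simulated data. Members were accounted for by class, and named where they reached 100 CPM or were among the 20 largest ratios of a comparison. Other pairs named were chosen after their values were seen. Partner genes named were the 2 highest and 2 lowest ratios of each list in interstitial progenitors and in pre-supporting cells, from the KO at E11.5. The members and lists were chosen with earlier results of these data known. A UMI marks a 3′ end and the share of a chain in UMIs is not its share in protein. Strand and paralog handling are those of the authors' counting.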

Additional observations from a re-analysis of the deposited data

Results flagged for a closer look

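Col12a1 moved in opposite directions in 2 lineages under the same comparison, XY KO E11.5 against the XY control. Its log2 ratio relative to the median gene was 1.89 in mesonephric epithelium, from 514 UMIs in the KO and 93 in the control, and -1.31 in pre-supporting cells, from 165 and 572 UMIs. With 1 sample per group the difference between the lineages was not tested. The mesenchyme markers summed to 266 CPM in the control and 350.4 CPM in the KO in mesonephric epithelium, and the 5 coelomic markers, of which Msln was at 0, to 343.5 and 385.5 CPM in pre-supporting cells. The part of these markers in the Col12a1 levels was not tested.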

How the results depend on the processing

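No replicate could be left out, since each group is 1 sample, and ratios and intervals rest on counting error alone. No paired analysis was possible because no group has a second sample. Counts of calls moved most with the minimum of UMIs. With at least 20 UMIs there were 37 calls in XY KO E11.5 (14 higher, 23 lower), 82 in the KO at E11.75 and 50 in the XX control, against 11, 41 and 15 at 100 UMIs. At 20 UMIs 305, 312 and 304 pairs were tested, and of all genes 1.89, 3.5 and 2.09 percent were called higher and 3.07, 4.34 and 3.02 percent lower. With at least 500 UMIs there were 4, 16 and 4. Of all tested pairs 0.25, 1.14 and 0.352 percent were then called higher and 0.454, 1.01 and 0.493 percent lower. In cells with at least 5000 UMIs there were 6, 26 and 9. The shares of all tested pairs were 0.453, 1.6 and 0.477 percent higher and 0.668, 1.71 and 0.727 percent lower. Both settings test fewer pairs or cells. Without centring on the median gene there were 11, 52 and 22, and with TMM factors the centred calls are the same by construction. Without centring 0.508, 2.81 and 0.514 percent of all tested pairs were called higher and 1.17, 1.25 and 1.53 percent lower. Left out after seeing the data, immune cells took the counts to 8, 41 and 12. The shares of all tested pairs were then 0.499, 1.59 and 0.409 percent higher and 0.879, 2.15 and 0.93 percent lower. A single run of the XY control, also chosen after seeing the data, took the counts to 12, 34 and 12 (run 1) or 14, 35 and 13 (run 2). With run 1 the shares were 0.646, 1.6 and 0.725 percent higher and 0.742, 1.74 and 0.887 percent lower. With run 2 they were 0.647, 1.67 and 0.72 percent higher and 0.75, 1.8 and 0.789 percent lower. For the sums in XY KO E11.5, on the log2 scale before centring, mesonephric mesenchyme moved from 0.19 for fibrillar chains to 0.30 with TMM factors, 0.22 with totals without mitochondrial, ribosomal and globin genes, 0.20 as a mean over cells and 0.21 in deep cells, and from 0.19 for basement membrane chains to 0.29 with TMM, 0.10 in deep cells and 0.11 with Col4a1 to Col4a6 alone. Interstitial progenitors moved from -0.22 to -0.076 (TMM) and -0.13 (reduced totals) for fibrillar chains and from -0.20 to -0.061 (TMM) and -0.59 (deep cells) for basement membrane chains. Pre-supporting cells moved from 0.29 to 0.38 with TMM and 0.38 with reduced totals for fibrillar chains and from 0.17 to 0.26 with both for basement membrane chains. Types with more basement membrane than fibrillar UMIs in the XY control fell from 5 to 3 with Col4a1 to Col4a6 alone and to 3 without Col18a1 (chosen after seeing the data), Sertoli and germ cells being the types that changed sign. The cause of these moves was not tested. Of the called ratios of single genes that were recomputed, none changed sign under the alternatives run for them. A change of sign was marked only for ratios of at least 2-fold, which the 6 sums of XY KO E11.5 do not reach. The values of these sums given above kept their sign. Centring set the sign of the basement membrane sum of Sertoli cells in the KO at E11.75 (0.000064 before and -0.14 after) and of the fibrillar sum of adrenal cells in the XX control (-0.029 and 0.0038). Of alternative values of counts and sums, 40 stayed close to the reported ones and 26 moved, and of those of single pairs and types 509 stayed and 78 moved.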
